A study of Mus musculus with 6 samples.

Results

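Lymphoid priming genes are the genes that hematopoietic progenitors switch on before they commit to the T cell or B cell lineage. The 9 followed here by name are Ikzf1, Bcl11a, Mef2c, Satb1, Tcf7, Il7r, Dntt, Rag1 and Rag2. All non-control probes that carry 1 of these names were taken, which gave 16 probes on 27 spots, out of 55681 probes with 34821 gene names on 59305 spots. The RNA came from LSK cells, a mouse fraction low in lineage markers and positive for Sca-1 and c-Kit, in which stem cells and multipotent progenitors lie. The fraction was sorted fresh from NIKaly/aly mice (samples 2, 4 and 6) and from wild-type mice (samples 1, 3 and 5), and each of the 6 samples was hybridised to its own one-colour Agilent array. NIKaly/aly mice are homozygous for aly, a point mutation that inactivates NIK, the kinase (gene Map3k14) that starts alternative NF-kB signalling, and carry it in all their cells. The tissue, age and strain of the mice are not given in the labels. Nor do they state whether each sample is a different animal, and p-values therefore reflect only the sample-to-sample spread, which could be technical.

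As multipotent progenitors become lymphoid-primed, they lose the capacity to make platelets and red cells, and a low level of lymphoid transcripts appears. Ikaros, encoded by Ikzf1, allows these transcripts to be made, and they include Dntt, Il7r and the Rag genes. The receptor encoded by Il7r then carries survival and growth signals in early B and T cell progenitors. Rag1 and Rag2 form the recombinase that cuts antigen receptor genes, and terminal transferase, encoded by Dntt, adds bases at the joints.

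Expression is given as a level, the log2 of a probe's processed signal over the 75th percentile of all non-control spots on its array, so that 1 unit is a 2-fold step and 0 is the percentile itself. A probe counts as detected on an array where the scanner software flagged it as well above background. Of the 16 probes, 9 were detected on all 6 arrays and 4 on none. The 11 probes detected on at least 3 arrays were tested, and they cover 8 of the 9 genes, all but Rag1. Levels of different probes are not comparable with each other, because each probe has its own hybridisation strength.

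Since aly is a point mutation, the level of Map3k14 does not check the genotype labels; it differed by 0.31 ± 0.48 (NIKaly/aly minus wild type; SE). The sort markers were present in both genotypes. Kit was at 4.66 to 5.45 in NIKaly/aly and at 4.65 to 5.20 in wild type, and Ly6a, which encodes Sca-1, was at 1.50 to 2.94 in NIKaly/aly and at 2.45 to 3.67 in wild type. Of the 9 tested of 10 LSK and stem cell markers, 6 read higher and 3 lower in NIKaly/aly (median 0.27), and their summed signal was 318 to 330 times the array's 75th percentile in NIKaly/aly and 252 to 291 times in wild type. None passed in limma; Procr, a surface marker of stem cells, was the only one with an unadjusted p under 0.05 and genotypes that did not overlap (0.78 ± 0.28). The part of stem cells in the levels of the lymphoid priming genes was not tested. Genes of mature cells were bright as well. The summed signal of 10 mature neutrophil genes was 1247 to 4400 times the array's 75th percentile in NIKaly/aly and 1140 to 7615 times in wild type. That of 7 erythroblast genes was 53.7 to 1000 times in NIKaly/aly, with the highest in NIKaly/aly 2, and 61.9 to 2625 times in wild type, with the highest in wild type 1. Hba-a2 was the brightest of the 7 on NIKaly/aly 2 (9.53) and wild type 1 (11.09) and makes up the largest part of those sums. Arrays with consecutive sample numbers, 1 of each genotype, resembled each other most (r = 0.975 to 0.989 across 15682 genes, which are not independent replicates, against 0.937 to 0.975 within a genotype).

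For 3 of the probes the sequence is shown, because they read the protein-coding part of the transcript and 2 of them fall in the zinc-binding parts of their proteins. The Ikzf1 probe lies at chr11:11669493-11669552 (mm9, plus strand), in a zinc finger. The Rag2 probe lies at chr2:101470723-101470782 (mm9, plus strand), in the finger with which Rag2 reads modified histones. Capitals mark a pair of cysteine codons, 6 bases apart, in a reading frame without a stop codon. The Mef2c probe has no such pair. Its 60 bases map to chr13:83772788-83775025 (mm9, plus strand), a span of 2238 bases, so it crosses at least 1 intron and reads spliced transcript. The sequences are written 5′ to 3′ as deposited with the array files.
Ikzf1: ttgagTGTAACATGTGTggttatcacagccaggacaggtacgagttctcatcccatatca
Rag2: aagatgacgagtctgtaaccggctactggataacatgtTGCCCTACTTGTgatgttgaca
Mef2c: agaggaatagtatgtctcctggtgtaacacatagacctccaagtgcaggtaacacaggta

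No lymphoid priming gene differed between NIKaly/aly and wild-type LSK cells beyond the spread between samples. Of the 8 tested genes, 4 read higher and 4 lower in NIKaly/aly (5 and 3 with array median scaling, under which Satb1 read higher), with a median difference of -0.03 against -0.01 over all 15682 tested genes. None passed the adjusted threshold in limma (0% of all genes did), none had an unadjusted p under 0.05 (1.33% of all genes did), and in none did the genotypes' ranges separate (they did in 4.57% of all genes: in 2.68% NIKaly/aly lay above wild type and in 1.89% below). The unadjusted p ranged from 0.306 for Il7r to 0.985 for Tcf7, and each adjusted p was 0.99998. In bulk RNA, fewer cells of a type and less RNA per cell cannot be told apart.

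**Figure D1:**
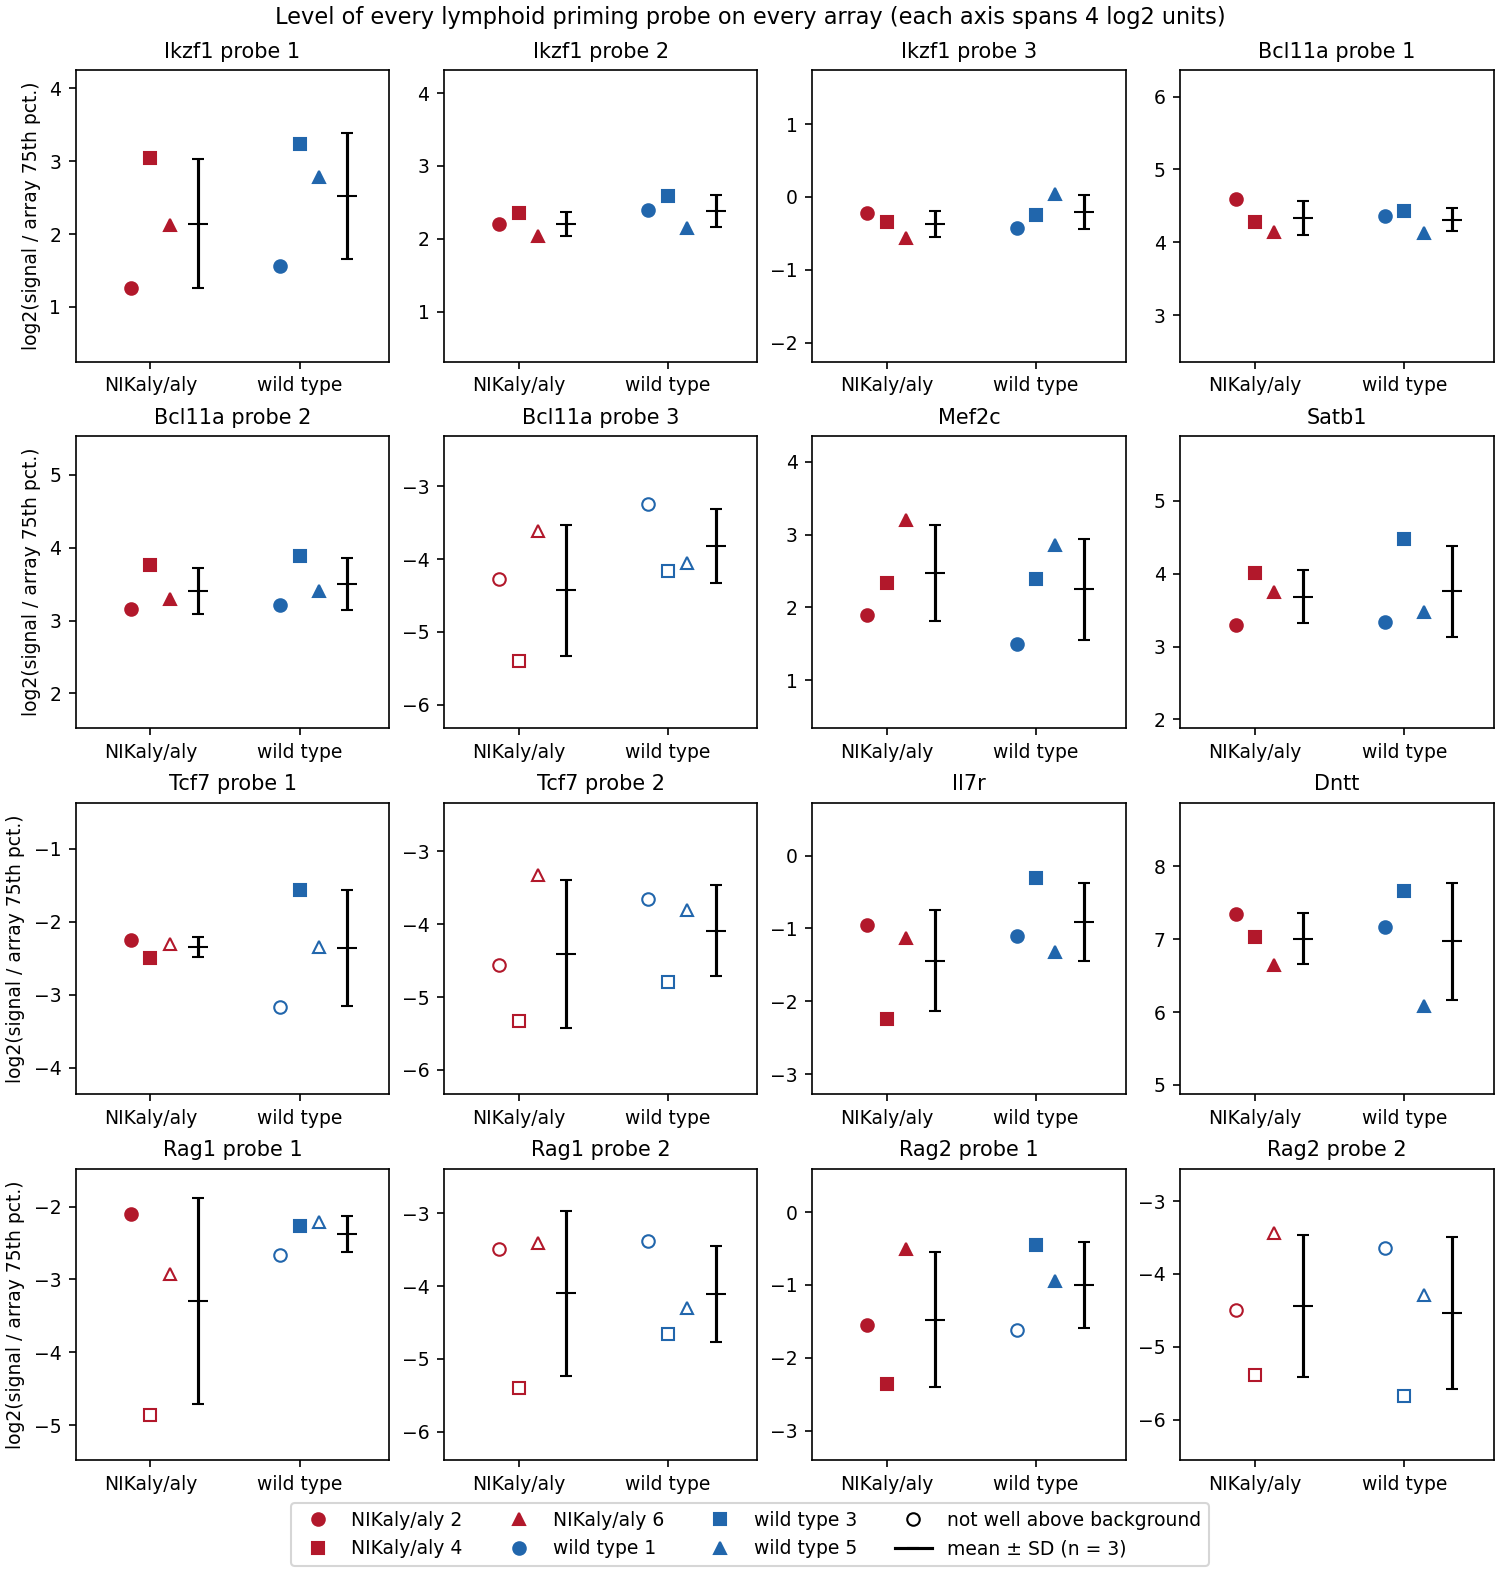
Level of each of the 16 probes (log2 of signal over the array's 75th percentile) in NIKaly/aly and wild-type samples. Each panel spans 4 log2 units, markers of 1 shape are consecutive samples, open markers are not well above background, and bars are the mean and SD of 3 arrays. The genotypes' values overlap for every probe.

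Ikzf1 was detected by 3 probes on all 6 arrays, and all 3 read somewhat lower in NIKaly/aly without passing the test. The probe at chr11:11661344-11661403, which stands for the gene in the fit over genes, was at 1.26, 3.04 and 2.13 in NIKaly/aly 2, 4 and 6, against 1.57, 3.23 and 2.78 in wild type 1, 3 and 5. It was lowest on samples 1 and 2 and highest on samples 3 and 4, in both genotypes alike. The difference was -0.38 ± 0.56 (SE, n = 3 per genotype; 95% interval -1.66 to 0.90; limma, adjusted p = 0.99998). Within the consecutive samples it was -0.31, -0.19 and -0.65, lower in NIKaly/aly in 3 of 3. With these samples as a block limma gave an unadjusted p = 0.037 and an adjusted p = 0.635. In that fit 1153 of all 15682 genes had an unadjusted p under 0.05, against 208 in the reported fit. The share of all genes lower or higher in 3 of 3 is not given here.

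The other Ikzf1 probes varied far less. At chr11:11672828-11672887 the levels were 2.21, 2.36 and 2.04 in NIKaly/aly 2, 4 and 6, against 2.40, 2.59 and 2.15 in wild type 1, 3 and 5. All 6 arrays lay within 0.55 log2 units, against 1.97 for the first probe, and the difference was -0.18 ± 0.26 (95% interval -0.78 to 0.42). Within the consecutive samples it was -0.19, -0.23 and -0.11, again lower in NIKaly/aly in 3 of 3. The coding probe shown above was at -0.22, -0.34 and -0.56 in NIKaly/aly, against -0.42, -0.25 and 0.04 in wild type, a difference of -0.16 ± 0.30. Within the consecutive samples its difference was 0.20, -0.09 and -0.60, so it read higher in NIKaly/aly 2 than in wild type 1. The first probe thus moved between samples in a way that the other 2 probes of the gene did not. Its difference was 0.06 when NIKaly/aly 2 was left out and -0.03 when wild type 3 was. It was -0.86 when wild type 1 was left out and -0.83 when NIKaly/aly 4 was.

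Bcl11a encodes a zinc-finger repressor that B cell development requires. Its brightest probe had the narrowest range of the 8 probes that stand for the tested genes. This probe, at chr11:24073114-24073173, was at 4.59, 4.28 and 4.14 in NIKaly/aly 2, 4 and 6, against 4.36, 4.43 and 4.13 in wild type 1, 3 and 5. The difference was 0.03 ± 0.27 (95% interval -0.60 to 0.65; limma, adjusted p = 0.99998), an interval that leaves room for a change of up to 1.57-fold in either direction. A second probe, at chr11:24068355-24068414, was at 3.16 to 3.76 in NIKaly/aly and at 3.21 to 3.89 in wild type, and differed by -0.10 ± 0.31. The third, at chr11:24074059-24074118, was detected on none of the arrays.

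Mef2c encodes a transcription factor that favours lymphoid over myeloid fate in multipotent progenitors. It was at 1.89, 2.33 and 3.19 in NIKaly/aly 2, 4 and 6, against 1.50, 2.39 and 2.86 in wild type 1, 3 and 5. The samples of each genotype spread over more than a log2 unit, and the genotypes overlapped. The difference of 0.23 ± 0.45 (95% interval -0.82 to 1.27; limma, adjusted p = 0.99998) was smaller than the SD within either genotype (0.66 in NIKaly/aly and 0.69 in wild type). Leaving out wild type 1 gave -0.15, leaving out NIKaly/aly 6 gave -0.13, and leaving out wild type 5 gave 0.53.

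Satb1 encodes a chromatin organiser that supports lymphoid gene expression in stem and progenitor cells. Its probe, at chr17:51879137-51879196, was at 3.29, 4.01 and 3.75 in NIKaly/aly 2, 4 and 6, against 3.33, 4.47 and 3.47 in wild type 1, 3 and 5. Wild type 3 stood above the other arrays, and the genotypes overlapped (difference -0.07 ± 0.38; 95% interval -0.95 to 0.80; limma, adjusted p = 0.99998). Without wild type 3 the difference was 0.28.

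Tcf7 encodes TCF-1, a factor of early thymic progenitors and T cells. It was at the edge of detection. Its brighter probe, at chr11:52066114-52066173, was detected in 2 NIKaly/aly samples and 1 wild-type sample. It was at -2.24, -2.49 and -2.30 in NIKaly/aly 2, 4 and 6, against -3.16, -1.56 and -2.34 in wild type 1, 3 and 5. The NIKaly/aly values lay inside the wild-type range. The difference was 0.01 ± 0.56 (95% interval -1.28 to 1.30). It includes undetected signals on NIKaly/aly 6, wild type 1 and wild type 5, so the interval sets no limit on the change in transcript. The second probe, at chr11:52066738-52066797, was detected on none of the arrays.

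Il7r, the receptor chain for interleukin 7, showed the largest difference of the 8 genes, and it rested on 2 arrays. Its probe, at chr15:9435976-9436035 on the minus strand, was at -0.96, -2.24 and -1.13 in NIKaly/aly 2, 4 and 6, against -1.10, -0.31 and -1.33 in wild type 1, 3 and 5. NIKaly/aly 4 was the lowest and wild type 3 the highest, and the other 4 arrays lay close together. The difference was -0.53 ± 0.49 (95% interval -1.65 to 0.59; limma, adjusted p = 0.99998). Leaving out NIKaly/aly 4 brought it to -0.13, and leaving out wild type 3 to -0.23. Within the consecutive samples it was 0.14, -1.93 and 0.20, higher in NIKaly/aly in 2 of 3. With array weights, which give arrays unequal influence on the fit, it was -1.38, with an unadjusted p of 0.0059 and an adjusted p of 0.490 in limma. With array weights 695 of all 15682 genes had an unadjusted p under 0.05 in limma, against 208 in the reported fit. The Il7r difference was -0.20 with normexp background correction and 0.04 with array column as a random block.

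Dntt, the gene of terminal transferase, was strongly detected in every sample. Its probe, at chr19:41133936-41133995, was at 7.35, 7.03 and 6.65 in NIKaly/aly 2, 4 and 6, against 7.16, 7.66 and 6.09 in wild type 1, 3 and 5. The wild-type samples held both the highest and the lowest value, with an SD of 0.80 against 0.35 in NIKaly/aly. The difference was 0.04 ± 0.46 (95% interval -1.03 to 1.11; limma, adjusted p = 0.99998), which leaves room for a change of up to 2.16-fold. Leaving out wild type 3 gave 0.38, and leaving out wild type 5 gave -0.40.

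Rag2 gave a signal with its coding probe and none with its second probe. The coding probe was detected in all 3 NIKaly/aly samples and in 2 wild-type samples, all but wild type 1. It was at -1.55, -2.36 and -0.51 in NIKaly/aly 2, 4 and 6, against -1.62, -0.45 and -0.95 in wild type 1, 3 and 5. NIKaly/aly 4 was again the lowest and wild type 3 the highest. The difference was -0.47 ± 0.56 (95% interval -1.76 to 0.82; limma, adjusted p = 0.99998). Leaving out NIKaly/aly 4 gave -0.02, wild type 3 gave -0.19, NIKaly/aly 6 gave -0.95 and wild type 1 gave -0.78. With array weights the difference was -1.43, with an unadjusted p of 0.0084 and an adjusted p of 0.563 in limma. In that fit 695 of all 15682 genes had an unadjusted p under 0.05. The Rag2 difference was -0.11 with normexp and 0.13 with the column block.

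The other Rag2 probe, at chr2:101472445-101472504, was printed on 10 spots of each array, which shows the error of the dimmest signals. It was not detected on an array, and of all its spots 1, on NIKaly/aly 6, was flagged as well above background. The SD between spots was 0.10 to 0.51 log2 units in NIKaly/aly and 0.10 to 0.24 in wild type, while the spot means differed by up to 2.25 units between arrays. Its level was lowest on wild type 3 and NIKaly/aly 4, the arrays with the highest 75th percentile. That percentile was 126, 201 and 50.8 signal units in NIKaly/aly 2, 4 and 6, against 47.0, 225 and 80.2 in wild type 1, 3 and 5.

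Rag1 was not tested, because neither probe was detected on 3 arrays. The probe at chr2:101478813-101478872 was detected on NIKaly/aly 2 and on wild type 3, on both of its spots. It was at -2.11, -4.85 and -2.92 in NIKaly/aly 2, 4 and 6, against -2.67, -2.27 and -2.21 in wild type 1, 3 and 5. The low values of NIKaly/aly 4 and 6 came with spots that differed by 1.05 and 1.26 (SD between 2 spots). Where the probe was not detected, its unscaled signal was 6.96 and 6.71 units in NIKaly/aly 4 and 6, against 7.4 and 17.35 in wild type 1 and 5. The percentile that sets the level was 201 and 50.8 on these NIKaly/aly arrays, against 47.0 and 80.2. With no filter on dim probes, limma gave a difference of -0.91 ± 0.73 and an unadjusted p = 0.228. This difference includes the undetected signals, and the part of their scaling in it was not tested. The other Rag1 probe, at chr2:101481051-101481110, was not detected on any array.

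**Figure D2:**
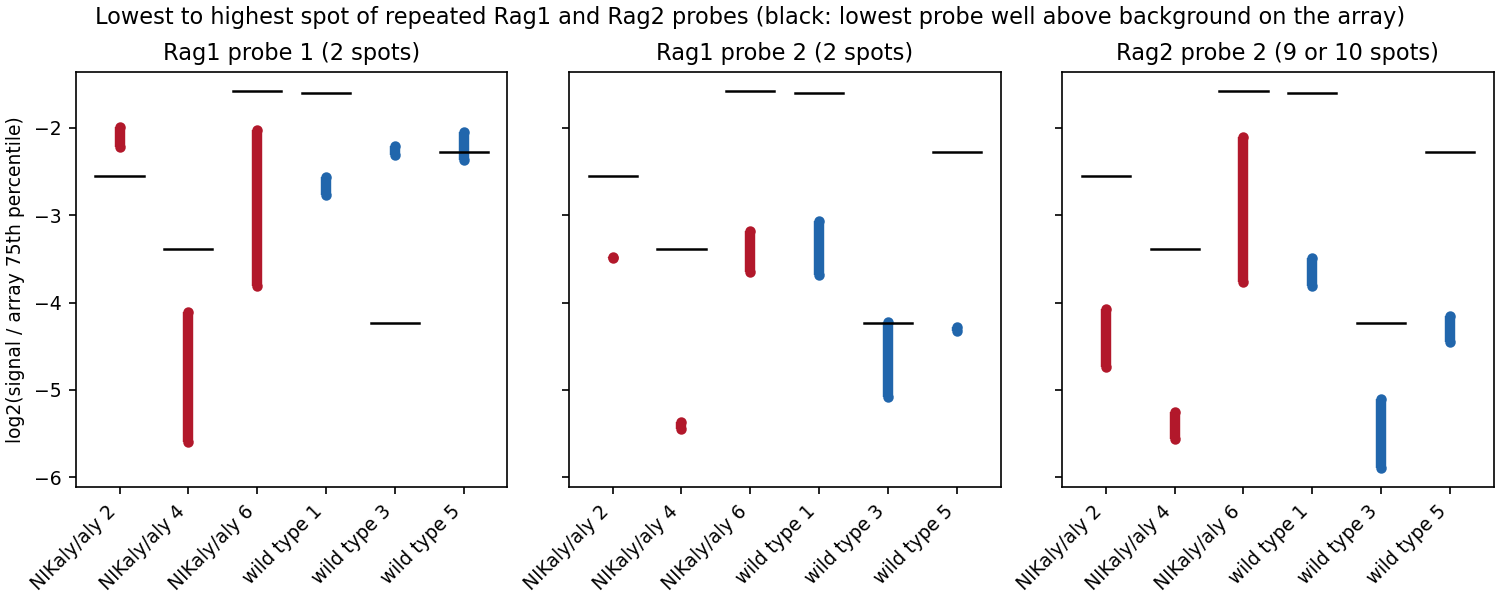
Lowest and highest spot (log2 of signal over the array's 75th percentile) of the Rag1 and Rag2 probes printed more than once, on each NIKaly/aly array (red) and wild-type array (blue). Black lines mark the lowest probe well above background on that array. Both spots of Rag1 probe 1 lie above the line on NIKaly/aly 2 and wild type 3, and all spots of Rag2 probe 2 lie below it.

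Over the 11 tested probes of these genes, intervals were wide next to the differences. The differences ran from -0.53 to 0.23, and every 95% interval included 0. Among the 11, the narrowest intervals were those of the second Ikzf1 probe and the brightest Bcl11a probe, and the widest were those of the first Ikzf1 probe, Rag2 and Tcf7. None of the 11 had an unadjusted p under 0.05 or genotypes that did not overlap, against 1.28% and 4.57% of all 21217 tested probes.

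**Figure D3:**
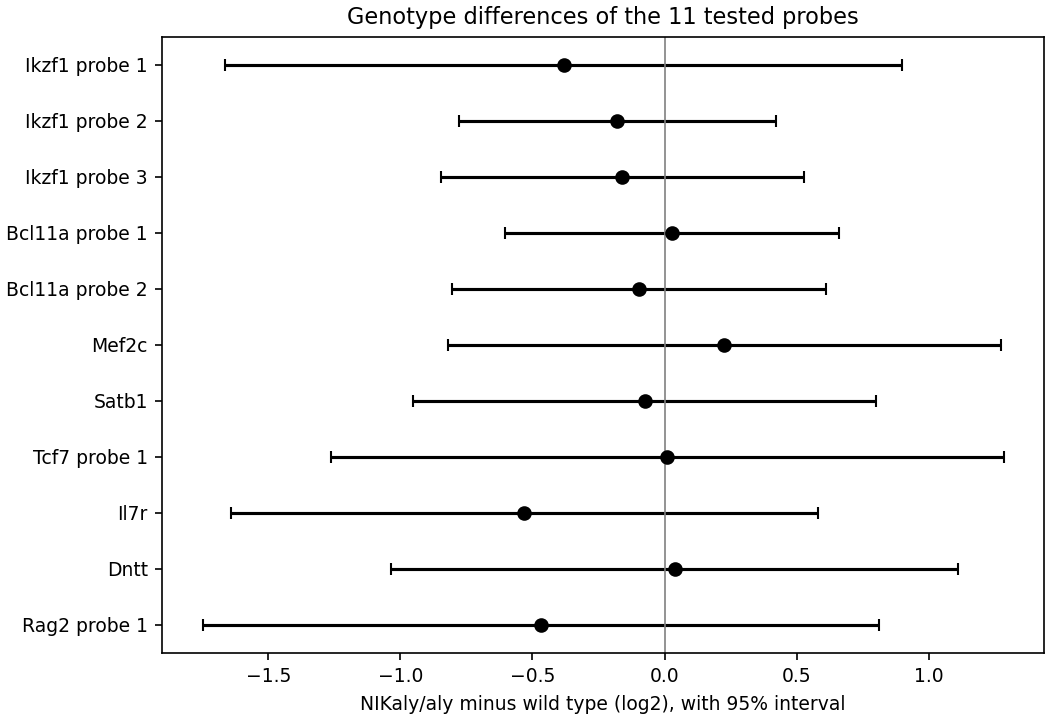
Difference in level (NIKaly/aly minus wild type, log2) of the 11 tested probes, with 95% intervals from the limma fit over all 21217 probes (3 arrays per genotype). Every interval includes 0, and they span from -1.75 to 1.28.

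The highest values were unevenly spread over the arrays. Wild type 3 gave the highest value for 8 of the 11 tested probes, those of Satb1, Tcf7, Il7r, Dntt and Rag2, the first and second of Ikzf1 and the second of Bcl11a, and the lowest value for none. Over all 21217 tested probes, wild type 3 gave the highest value for 9.74% and the lowest for 11.4%. NIKaly/aly 4 gave the highest value for none of the 11 and the lowest for 2, those of Il7r and Rag2, while it gave the highest value for 10.4% of all probes. Wild type 3 and NIKaly/aly 4 were also the brightest arrays, with 45.6% and 43.8% of spots well above background against 33.1% to 38.1% on the others. The part of array brightness in these values was not tested.

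**Figure D4:**
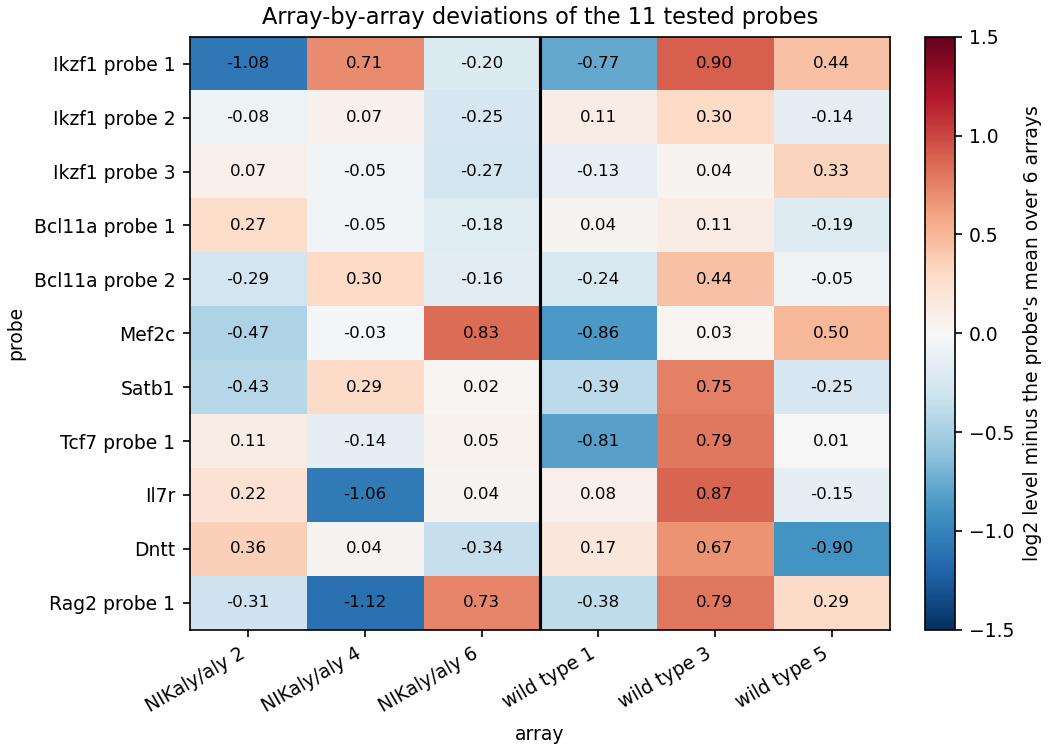
Level of each tested probe on each array minus the probe's mean over the 6 arrays (log2, red above and blue below), with NIKaly/aly arrays left of the line and wild-type arrays right of it. The wild type 3 column is above the mean for all 11 probes and the highest for 8, and Il7r and Rag2 are lowest in NIKaly/aly 4.

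Il7r, Rag1, Rag2 and Dntt are also expressed by B cell progenitors. The summed signal of the 11 tested of 15 B cell and B progenitor markers was 89.2, 19.7 and 51.1 times the array's 75th percentile in NIKaly/aly 2, 4 and 6, against 177, 41.2 and 46.6 times in wild type 1, 3 and 5. It was lowest on NIKaly/aly 4, the array with the lowest Il7r and Rag2, and second-lowest on wild type 3, the array with the highest Il7r and Rag2. All 11 markers read lower in NIKaly/aly (median -0.75) and none passed in limma, adjusted or at an unadjusted p under 0.05. Cd79a, which encodes a signalling chain of the B cell receptor, was at 2.12, -2.17 and 0.85 in NIKaly/aly 2, 4 and 6, against 3.65, -0.0025 and 1.24 in wild type 1, 3 and 5. Vpreb1, part of the surrogate light chain of B progenitors, differed by -0.63 ± 0.63 and was lowest on NIKaly/aly 4. Pax5, Blk, Cr2 and Fcer2a, also markers of B cells, were detected on fewer than 3 arrays or had no usable value. The part of these cells in the levels of Il7r and Rag2 was not tested.

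T cell markers, which bear on Tcf7 and Il7r, had a summed signal of 33.2 to 50.8 times the 75th percentile in NIKaly/aly and 35.2 to 62.9 times in wild type (11 tested genes, 5 higher and 6 lower, median -0.02). NK and innate lymphoid markers summed to 4.45 to 11.5 times in NIKaly/aly and 4.96 to 11.9 times in wild type (9 genes, 5 higher and 4 lower, median 0.0009). Their differences ran from -1.35 to 0.86. Klrb1c, detected on 4 of 6 arrays, read lower in NIKaly/aly and was the only one of the 9 whose genotypes did not overlap (-1.17 ± 0.52). Markers of plasmacytoid dendritic cells, which also express Dntt and the Rag genes in part, summed to 148 to 208 times in NIKaly/aly and 205 to 247 times in wild type (9 genes, 3 higher and 6 lower, median -0.17). Siglech was the brightest of these 9 on every array and makes up the largest part of their sum. No gene of these 3 lists passed in limma. Irf8, a factor of dendritic cells and monocytes that is in this last list, was the only gene of these 3 lists with an unadjusted p under 0.05. Irf8 was at 3.95, 3.59 and 3.07 in NIKaly/aly 2, 4 and 6, against 5.25, 4.79 and 4.23 in wild type 1, 3 and 5, and its genotypes did not overlap (-1.22 ± 0.37; limma, adjusted p = 0.99998). The 5 tested of 10 macrophage and monocyte markers all read lower in NIKaly/aly (median -0.57), and none passed the adjusted threshold. Their summed signal was 18.1 to 21.4 times the 75th percentile in NIKaly/aly and 29.4 to 48.6 times in wild type, without overlap. Csf1r, the receptor of a macrophage growth factor, was at 3.82, 3.77 and 3.26 in NIKaly/aly 2, 4 and 6, against 5.29, 4.51 and 4.55 in wild type 1, 3 and 5 (-1.17 ± 0.33; limma, adjusted p = 0.99998). It was the only one of the 5 whose genotypes did not overlap and the only one with an unadjusted p under 0.05. As the brightest of the 5 on every array, it makes up the largest part of their summed signal. The part of these cells in the levels of the lymphoid priming genes was not tested.

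The partners of these genes gave a like picture. Of 27 other lymphoid transcription factors, 23 were tested, 9 read higher and 14 lower, and the median difference was -0.04. Tox, which encodes a nuclear factor of T cell and innate lymphoid development, was the only one with an unadjusted p under 0.05 in limma. It was at 0.94, 0.90 and 1.35 in NIKaly/aly 2, 4 and 6, against 0.35, 0.50 and -0.19 in wild type 1, 3 and 5. All 3 NIKaly/aly samples lay above all 3 wild-type samples, and the difference was 0.84 ± 0.30 (limma, adjusted p = 0.99998). Tcf12, which encodes the E protein HEB, also did not overlap, at 0.54 to 0.74 in NIKaly/aly and 0.16 to 0.51 in wild type (0.32 ± 0.26). Notch1, the receptor that directs progenitors to the T cell fate, differed by -0.64 ± 0.42 and Zeb2 by -0.48 ± 0.30, with overlapping genotypes.

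Of 15 genes of the interleukin 7 receptor pathway, 13 were tested, 5 read higher and 8 lower, and none had an unadjusted p under 0.05 (median -0.01). Il2rg, the common chain that pairs with the product of Il7r, was at 2.74, 2.27 and 2.22 in NIKaly/aly 2, 4 and 6, against 2.31, 2.04 and 2.04 in wild type 1, 3 and 5 (0.28 ± 0.27). Cish, an inhibitor that STAT5 induces, was at 0.81, 0.65 and 0.41 in NIKaly/aly, against 1.28, 0.77 and 1.33 in wild type (-0.50 ± 0.28). The genotypes overlapped for both genes. Stat5b, which relays the receptor's signal, differed by -0.19 ± 0.26 and the survival kinase gene Pim1 by 0.17 ± 0.31.

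All 15 genes of recombination and end joining, which work with Rag1, Rag2 and Dntt, were tested, and 8 read higher and 7 lower (median 0.01, none at an unadjusted p under 0.05 in limma). Xrcc5, which encodes the Ku80 end-binding protein, was at 2.53, 1.55 and 1.63 in NIKaly/aly 2, 4 and 6, against 1.62, 1.44 and 0.64 in wild type 1, 3 and 5 (0.67 ± 0.39). Its genotypes overlapped. Paxx, named BC029214 in the files and a factor that binds Ku, did not overlap, at 4.32 to 4.48 in NIKaly/aly and 3.77 to 4.27 in wild type (0.29 ± 0.27). Hmgb1, a chromatin protein that helps the recombinase bend its target, differed by 0.29 ± 0.30, and the polymerase gene Poll by -0.27 ± 0.32.

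Surface genes of lymphoid-primed progenitors read lower in 11 of 14, with a median of -0.17, and none had an unadjusted p under 0.05 in limma. Itgb7, an integrin chain, differed by -0.73 ± 0.41 and Selplg, the ligand of P-selectin, by -0.48 ± 0.42. Ly6d, a marker of B-biased progenitors that stands in the dendritic list too, was at 3.82, 0.43 and 2.55 in NIKaly/aly, against 5.16, 1.67 and 3.04 in wild type (-1.02 ± 1.03). The genotypes overlapped for each of Itgb7, Selplg and Ly6d. Within the consecutive samples each of these 3 read lower in NIKaly/aly in 3 of 3. The differences were -1.19, -0.64 and -0.36 for Itgb7, -0.78, -0.31 and -0.35 for Selplg and -1.33, -1.23 and -0.49 for Ly6d. These genes were named for their low unadjusted p on the same 6 arrays, so this agreement in sign is not separate support. The share of all genes that read so is not given here. With consecutive samples as a block no gene of the 4 related lists passed the adjusted threshold. Ly6d was lowest on NIKaly/aly 4 and highest on wild type 1.

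**Figure D5:**
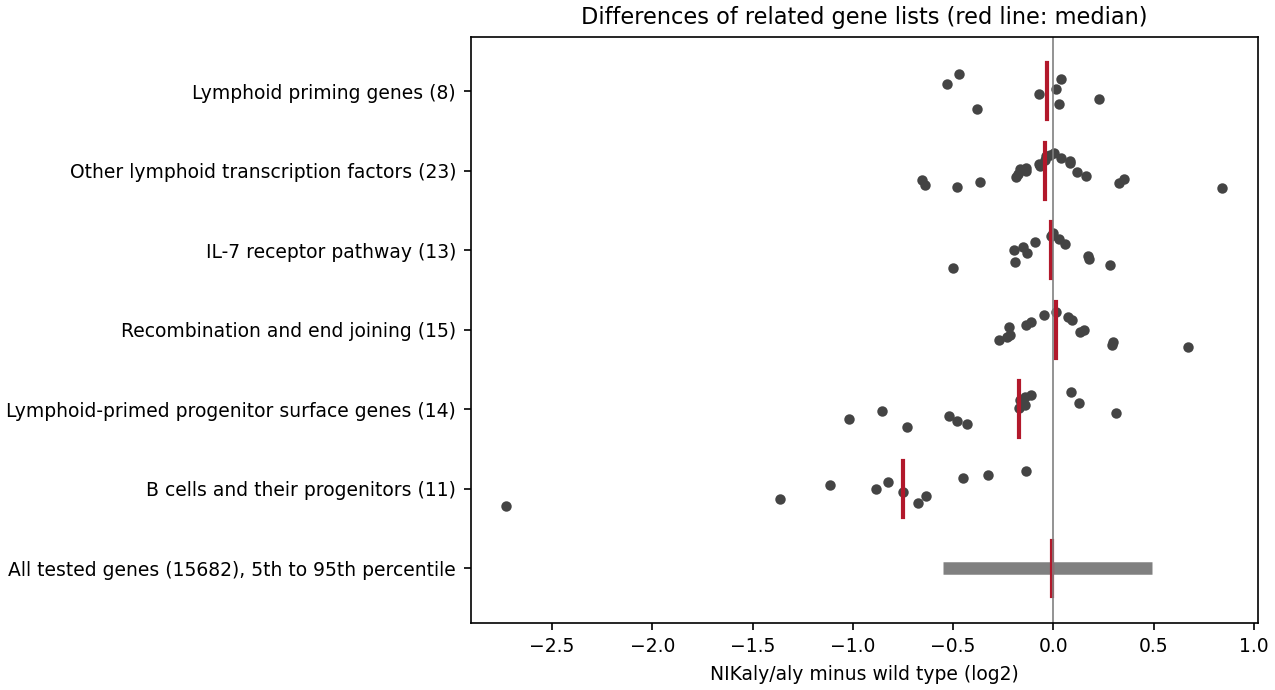
Difference in level (NIKaly/aly minus wild type, log2) of each tested gene of the lymphoid priming list, of 4 related lists and of B cell markers, with the number of genes in brackets. Red lines are medians, and the grey bar spans the 5th to 95th percentile of all 15682 tested genes. The medians are -0.03 for lymphoid priming genes and -0.75 for B cell markers.

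The genes whose levels followed these genes most closely over the 6 arrays were found by the root mean square difference of levels, after each gene's own mean was taken off. The 9831 candidates, like the 6 genes compared, were detected on all arrays and carry a RefSeq symbol, and all share the same 6 arrays and their brightness. Bcl11a was closest to Ptcd3 (0.03 log2 units), Spg7 (0.04) and Pus10 (0.04). Mef2c was closest to Pde1b (0.09), Clk1 (0.11) and Lonrf3 (0.11), and Satb1 to Gpr25 (0.08), 5031425E22Rik (0.08) and Zfp433 (0.12). Dntt was closest to Rnf10 (0.11), Ankrd24 (0.14) and 9030619P08Rik (0.15), and Ikzf1 to Fam193b (0.18), Tnrc6a (0.19) and Plcd4 (0.19). Il7r had no close match, since Acadl was 0.28 away, Hmga2 0.37 and Sun1 0.37. No lymphoid priming gene could be among the candidates, and none of the genes of the 4 related lists was among the 3 closest of any. The 4 lists hold 23, 13, 15 and 14 tested genes, few beside 9831 candidates, so their absence says little.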

How the data were processed

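RNA of the sorted cells was labelled with a single dye and hybridised, per the labels' protocols. The file headers name Agilent Feature Extraction, version 10.7.3.1, as the scanner software and mm9 as the build of probe positions. The deposited intensity is a detrended, background-subtracted processed signal per spot. The authors' deposited series table holds ratios of this signal to each array's median over non-control spots, checked to within 1.9e-06, and was an alternative. Each probe's log2 signal was set against the 75th percentile of its array. Spots flagged as outliers were left out, no spot was saturated, and spots of 1 probe were averaged. Probes well above background on at least 3 of 6 arrays, whatever the genotype, were tested (21217 with a value on every array), and the brightest probe stood for each of 15682 genes. The comparison of genotypes used R 4.3.3 and limma 3.58.1 (lmFit, eBayes with an intensity trend, Benjamini-Hochberg adjustment at 0.05, two-sided). The fit was tested on simulated data. All arrays came from 1 slide, with samples 1 to 4 in row 1 and 5 and 6 in row 2. Wild-type arrays lay in columns 1 and 3 and NIKaly/aly arrays in columns 2 and 4, so column and genotype cannot be told apart. The number of arrays limits the precision. List genes were matched by RefSeq accession, then by name. Named are the 9 genes, in each related list the 4 genes of lowest unadjusted p, and the 3 closest patterns; 1 gene so chosen is not reported here. Of the marker lists, only genes that a statement rests on are named, and some of these were chosen after their values were seen. Members and lists were chosen with earlier results of these data known. The pairing of consecutive samples comes from those results, not from the labels.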

Additional observations from a re-analysis of the deposited data

How the results depend on the processing

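No lymphoid priming gene and no probe of these genes passed the threshold under any of the alternatives run (21 for genes and 20 for probes). Over all genes, where 0 passed (208 at an unadjusted p under 0.05), 10 passed with array median scaling or the authors' table, 5 with array weights, 2 with no filter on dim probes, 2 with consecutive samples as a block, 1379 with array column as a random block, and 0 to 1 with 1 array left out (1 without wild type 3). The block on array column also called 8 genes of the 4 related lists. The within-column correlation it estimated was -0.88, and a negative value shrinks the error of a genotype difference. It also leaves little weight to wild type 3 and NIKaly/aly 4, the only arrays alone in their column. Differences changed sign as follows, and the cause was not tested. With array median scaling and the authors' table Satb1 was 0.025. With array weights Bcl11a was -0.063, Mef2c -0.060, Tcf7 -0.57 and Dntt -0.15. With the column block Satb1 was 0.084, Il7r 0.045 and Rag2 0.13. With a gene's probes averaged, Bcl11a was -0.035. Within slide row 1 Tcf7 was -0.0054 and Dntt -0.22, while row 2 holds 1 array of each genotype. Without wild type 1 and NIKaly/aly 2, Bcl11a was -0.073, Tcf7 -0.44 and Dntt -0.035. With 1 array left out the differences ran from -0.86 to 0.060 for Ikzf1, -0.10 to 0.13 for Bcl11a, -0.15 to 0.53 for Mef2c, -0.29 to 0.28 for Satb1, -0.39 to 0.41 for Tcf7, -0.77 to -0.13 for Il7r, -0.40 to 0.38 for Dntt and -0.95 to -0.02 for Rag2. The median of all genes was 0.09 with array median scaling and -0.11 without NIKaly/aly 2, against -0.01 in the reported fit. Normexp gave -0.20 for Il7r and -0.11 for Rag2. The genotypes share no sample number in the labels, so the block on consecutive samples rests on the data, not on the design.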
